A study of Mus musculus with 13 samples.

Results

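The genes described here encode 10 subunits of Polycomb repressive complex 2 (PRC2), namely Ezh1, Ezh2, Eed, Suz12, Rbbp4, Rbbp7, Jarid2, Mtf2, Phf1 and Phf19. They were taken by name, without Aebp2, from the 22367 protein-coding genes that GENCODE vM1 places on chromosomes 1 to 19, X and Y of the mouse genome build mm9. For each gene, the peaks of 5 deposited ChIP-seq lists were sought within 1 kb on either side of the gene start and between gene start and gene end. Where a list had none, the distance from the gene start to its nearest peak was measured. All 10 genes were found, each under 1 entry of the annotation.

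The 5 lists came from undifferentiated mouse embryonic stem cells (mESCs) grown without feeder cells in serum and LIF, and labelled as a wild-type 129/1 XY line. There were 2 replicates of endogenous AEBP2, immunoprecipitated with an antibody raised by the study, 2 replicates of H3K27me3 (the labels name the antibody anti-H3K27, and the study's text names the trimethyl mark), and 1 sample of FS2-AEBP2. FS2-AEBP2 is a plasmid-borne AEBP2 (vector pCAG) that carries Flag and StrepII epitopes at its start. The study's methods place it in E14 cells, another mESC line name than the label's, and its ChIP followed a separate protocol. Nothing in the labels says whether replicates were separate cultures. Inputs, SUZ12 and the Aebp2 mutant cells were not analysed here. After peaks off the main chromosomes were left out, the lists held 2877 and 6779 peaks (AEBP2 replicates 1 and 2), 14112 and 9275 peaks (H3K27me3 replicates 1 and 2) and 2884 peaks (FS2-AEBP2). They give no read counts, so the depth behind a peak is unknown, and a gene without a peak is a gene at which none was listed. No test between targets was run on these lists of 1 or 2 samples per target, and every count below is a description.

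PRC2 places methyl groups on lysine 27 of histone H3 and helps to keep developmental genes silent in mESCs. EZH1 and EZH2 are the alternative catalytic subunits. They act in a core with EED, which binds the trimethylated lysine, with SUZ12, which holds the complex together, and with the histone-binding proteins RBBP4 and RBBP7. The core joins accessory proteins in alternative forms: a Polycomb-like protein (PHF1, MTF2 or PHF19) in one, and JARID2 with AEBP2 in the other.

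The sequences that the results turn on lie at gene starts and in the coding exons of Jarid2. They were read from the mm9 reference, which is the C57BL/6J genome and not that of the 129 cells. The first set holds the 200 bases before an annotated transcript start, 5′ to 3′ on the strand of the gene, with each CG in capitals. Jarid2 and Rbbp7 stand for the starts with peaks of both AEBP2 replicates, Eed and Rbbp4 for those with a peak of AEBP2 replicate 2 alone, Phf19 for the start marked by H3K27me3, and Ezh2 for those with no peak. The Jarid2 stretch ends before the transcript start at position 44826143, 1300 bp downstream of the gene start and inside the peaks. Of the 200 bases printed for Rbbp7, 42 lay in the peak of AEBP2 replicate 1 and 176 in that of replicate 2.
Jarid2 (chr13:44825943-44826142, plus strand): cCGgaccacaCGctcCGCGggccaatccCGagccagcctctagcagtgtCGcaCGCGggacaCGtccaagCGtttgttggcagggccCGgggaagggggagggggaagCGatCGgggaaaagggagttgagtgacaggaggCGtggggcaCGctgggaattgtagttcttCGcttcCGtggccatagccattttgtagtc
Rbbp7 (chrX:159198134-159198333, plus strand): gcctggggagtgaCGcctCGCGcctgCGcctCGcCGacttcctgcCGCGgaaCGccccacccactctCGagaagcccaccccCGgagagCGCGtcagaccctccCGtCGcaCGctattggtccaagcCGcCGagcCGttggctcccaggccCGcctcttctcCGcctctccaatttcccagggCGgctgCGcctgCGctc
Eed (chr7:97129494-97129693, minus strand): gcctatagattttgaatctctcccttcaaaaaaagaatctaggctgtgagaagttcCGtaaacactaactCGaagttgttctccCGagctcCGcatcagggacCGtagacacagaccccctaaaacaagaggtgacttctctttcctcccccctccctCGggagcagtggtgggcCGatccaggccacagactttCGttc
Rbbp4 (chr4:129012615-129012814, minus strand): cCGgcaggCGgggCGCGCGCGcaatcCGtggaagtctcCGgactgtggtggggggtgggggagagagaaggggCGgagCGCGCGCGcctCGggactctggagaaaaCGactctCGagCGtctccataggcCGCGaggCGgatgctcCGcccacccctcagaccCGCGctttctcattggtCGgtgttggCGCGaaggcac
Phf19 (chr2:34769547-34769746, minus strand): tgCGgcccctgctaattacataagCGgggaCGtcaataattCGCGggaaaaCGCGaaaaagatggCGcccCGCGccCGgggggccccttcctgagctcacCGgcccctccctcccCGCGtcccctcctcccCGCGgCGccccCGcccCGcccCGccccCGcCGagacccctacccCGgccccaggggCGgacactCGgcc
Ezh2 (chr6:47545341-47545540, minus strand): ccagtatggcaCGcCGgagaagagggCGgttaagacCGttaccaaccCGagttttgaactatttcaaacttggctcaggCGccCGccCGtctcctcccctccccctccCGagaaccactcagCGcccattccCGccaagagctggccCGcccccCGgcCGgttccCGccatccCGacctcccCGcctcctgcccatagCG
These stretches held 17 CG at Jarid2, 24 at Rbbp7, 8 at Eed, 26 at Rbbp4, 25 at Phf19 and 18 at Ezh2. The Eed and Rbbp4 stretches, both wholly within a peak of AEBP2 replicate 2 alone, held the fewest and the most.

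The second set comes from Jarid2, with coding bases in capitals and intron bases in lower case, plus strand. Exons 8, 14 and 18 lay under peaks of AEBP2 replicate 2 described further on, and exon 9 lay under none. The stretch of exon 8 holds the first 270 of its 503 coding bases, and that of exon 18 ends at the last codon before the stop.
Jarid2 exon 8 (chr13:45001572-45001871): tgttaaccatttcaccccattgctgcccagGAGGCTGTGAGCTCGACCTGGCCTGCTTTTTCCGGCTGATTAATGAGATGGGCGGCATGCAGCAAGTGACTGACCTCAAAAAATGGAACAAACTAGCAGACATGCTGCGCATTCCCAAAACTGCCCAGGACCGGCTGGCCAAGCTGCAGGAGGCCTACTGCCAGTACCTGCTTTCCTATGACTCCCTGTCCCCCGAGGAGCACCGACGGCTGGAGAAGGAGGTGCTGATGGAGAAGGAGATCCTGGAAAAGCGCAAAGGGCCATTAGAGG
Jarid2 exon 14 (chr13:45008990-45009232): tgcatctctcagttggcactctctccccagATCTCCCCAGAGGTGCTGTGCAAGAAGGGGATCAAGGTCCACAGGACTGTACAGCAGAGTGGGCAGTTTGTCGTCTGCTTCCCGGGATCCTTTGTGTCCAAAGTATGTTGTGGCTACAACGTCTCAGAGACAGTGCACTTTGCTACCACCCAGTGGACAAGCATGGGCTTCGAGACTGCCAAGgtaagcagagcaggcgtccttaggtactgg
Jarid2 exon 18 (chr13:45015139-45015318): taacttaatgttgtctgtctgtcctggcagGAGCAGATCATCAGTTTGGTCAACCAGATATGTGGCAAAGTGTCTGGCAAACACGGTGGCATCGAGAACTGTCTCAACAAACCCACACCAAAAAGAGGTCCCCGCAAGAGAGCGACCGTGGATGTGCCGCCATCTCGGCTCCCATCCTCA
Jarid2 exon 9 (chr13:45002833-45002985): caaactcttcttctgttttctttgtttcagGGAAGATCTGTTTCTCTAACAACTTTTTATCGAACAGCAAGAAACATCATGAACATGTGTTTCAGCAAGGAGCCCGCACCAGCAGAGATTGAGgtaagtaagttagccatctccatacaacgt

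Endogenous AEBP2 had peaks at the starts of Jarid2 and Rbbp7 in both replicates, and of Eed, Rbbp4 and Phf19 in replicate 2 only. Phf19 was the only one of the 10 genes with H3K27me3 at its start, in both replicates. No start had a peak of FS2-AEBP2, and the starts of Ezh1, Ezh2, Suz12, Mtf2 and Phf1 had no peak in any list. By list, AEBP2 replicate 1 had a peak at 2 of 10 gene starts (9.08% of all protein-coding genes), AEBP2 replicate 2 at 5 of 10 (22.3%), H3K27me3 replicate 1 at 1 of 10 (17.0%), H3K27me3 replicate 2 at 1 of 10 (17.7%) and FS2-AEBP2 at 0 of 10 (6.53%). Both AEBP2 replicates had a peak at 2 of 10 starts (8.44% of all genes, and 14.9% of those with a CpG-rich region, defined further on). Both H3K27me3 replicates had one at 1 of 10 (15.0% of all genes). A start with both AEBP2 replicates and neither H3K27me3 replicate was seen at 2 of 10 genes (2.40% of all genes). In a set of 10 genes each gene weighs heavily, and none of these counts was tested against the share of all genes.

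**Figure D1:**
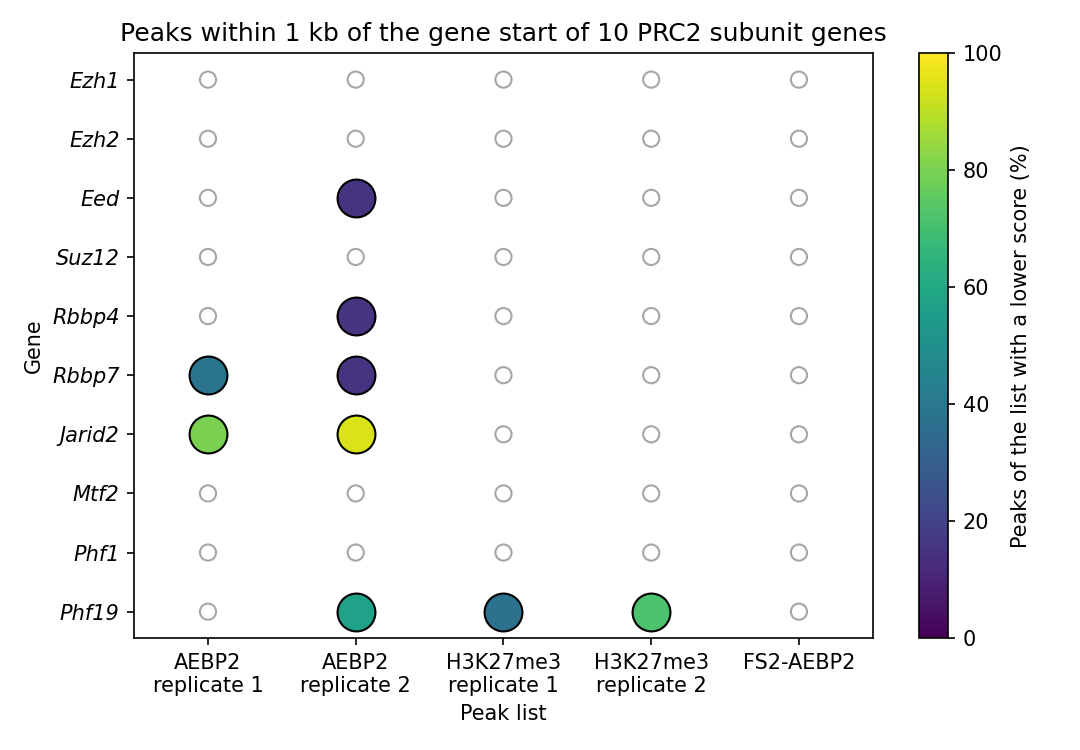
Peaks within 1 kb of the gene start, by gene (rows) and peak list (columns). A large filled circle marks a peak, coloured by the percentage of peaks in the same list with a lower score, and a small open circle marks no peak. The peaks of Jarid2 ranked above 80.0% and 94.5% of their lists, while 5 genes had open circles throughout.

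Counted over the gene body, from gene start to gene end, the same genes held peaks. AEBP2 replicate 1 had peaks in 2 of 10 gene bodies (10.3% of all genes), AEBP2 replicate 2 in 5 of 10 (24.9%), H3K27me3 replicate 1 in 1 of 10 (20.8%) and H3K27me3 replicate 2 in 1 of 10 (20.2%). FS2-AEBP2 gained 1 gene, Suz12, against 7.69% of all genes. The pattern over the 5 lists at the start of Jarid2 and Rbbp7, both AEBP2 lists and no other, was shared by 509 genes (2.28%). That of Eed and Rbbp4 was shared by 1884 genes (8.42%), that of Phf19 by 756 (3.38%) and the empty pattern of the other five by 15314 (68.5%). Peaks of all 5 lists were seen at 1023 gene starts (4.57%), none of them a PRC2 subunit gene.

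Neither catalytic subunit gene had a peak at its start or in its body. For Ezh1 (chr11:101052429-101087777, minus strand), the nearest peaks lay 36206 bp (AEBP2 replicate 1), 34212 bp (AEBP2 replicate 2), 19489 bp (H3K27me3 replicate 1), 18294 bp (H3K27me3 replicate 2) and 49883 bp (FS2-AEBP2) from the gene start. Each of these was closer to the start of another gene, Wnk4 for both AEBP2 peaks, Ramp2 for both H3K27me3 peaks and Ccr10 for FS2-AEBP2. For Ezh2 (chr6:47480273-47545340, minus strand), which encodes the main methyltransferase of dividing cells, the nearest peaks of 4 lists fell on a single narrow site upstream. Its distance from the gene start was 57647 bp and 57642 bp in the AEBP2 lists and 57603 bp and 57638 bp in the H3K27me3 lists, and Ezh2 was the nearest protein-coding gene start. The peaks were 410, 385, 517 and 434 bp long and shared 380 bp (chr6:47602987-47603366). Their scores ranked above 67.7% and 71.1% of the AEBP2 lists and above 94.5% and 99.8% of the H3K27me3 lists. The score is the whole number that the peak file carries for each peak. Its scale is not stated, so it was compared only within a list. The H3K27me3 peaks here were short for their lists, whose median lengths were 2073 and 2244 bp. FS2-AEBP2 had no peak there, and its nearest lay 144517 bp from the Ezh2 start.

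Among the core subunit genes, Rbbp7 (chrX:159198334-159217024, plus strand) had a short peak of each AEBP2 replicate across its start. The peak of replicate 1 was 415 bp long, ran from 42 bp before to 372 bp after the gene start and scored above 38.4% of its list. The peak of replicate 2 was 379 bp long, ran from 176 bp before the gene start into the first exon and scored above 15.1%. The part they shared was 44.6% of the stretch they spanned together, and both scored below the median of their list. The stronger part that the caller marked inside each, its sub-peak, lay 228 to 365 bp after the gene start in replicate 1. In replicate 2 it ran from 152 bp before to 26 bp after the gene start, so the sub-peaks did not overlap. The nearest H3K27me3 peaks lay 2743 bp (replicate 1) and 5027 bp (replicate 2) upstream. They were separate peaks of 405 and 3118 bp, and for both of them Rbbp7 was the nearest gene start. The nearest FS2-AEBP2 peak was 1994210 bp away, the largest distance of any of the 10 genes in any list.

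Eed (chr7:97103166-97129493, minus strand) had 1 peak, of AEBP2 replicate 2, 607 bp long from 345 bp before to 261 bp after the gene start. Rbbp4 (chr4:128984344-129012614, minus strand) likewise had 1 peak of AEBP2 replicate 2, 703 bp long from 274 bp before to 428 bp after it. Both had a score of 4, above 15.1% of the list and below 74.8% of it, so they were among its weaker peaks. AEBP2 replicate 1 had its nearest peak 577418 bp from the Eed start and 145035 bp from the Rbbp4 start. The start of Zbtb8os lies 325 bp from that of Rbbp4 on the opposite strand and 51 bp from the end of the peak, so the peak cannot be assigned to either gene alone. The nearest H3K27me3 peaks were 318268 and 319716 bp away for Eed, and 46483 and 46241 bp away for Rbbp4, where they lay over the start of Sync.

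Suz12 (chr11:79806608-79847625, plus strand) had no peak at its start. The only peak in its body, from FS2-AEBP2, was 150 bp long and lay 39542 bp after the gene start, wholly within the annotated 3′ UTR. Its score of 4 was above 9.36% of its list. The other lists had their nearest peaks at 144733 bp (AEBP2 replicate 1), 160993 bp (AEBP2 replicate 2), 161038 bp (H3K27me3 replicate 1) and 161108 bp (H3K27me3 replicate 2), all but the first of them at or near the start of Adap2.

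Of the Polycomb-like genes, Phf19 (chr2:34749277-34769546, minus strand) was marked by H3K27me3. The peak of replicate 1 was 4173 bp long, from 1454 bp before to 2718 bp after the gene start, and that of replicate 2 was 4267 bp long, from 1642 bp before to 2624 bp after it. They shared 4079 bp, 93.5% of their joined stretch, and scored above 37.2% and 71.6% of their lists. A 2226 bp peak of AEBP2 replicate 2 lay wholly inside both, from 1265 bp before to 960 bp after the gene start, and scored above 57.7% of its list. AEBP2 replicate 1 had its nearest peak 42939 bp away at the start of Psmd5, and FS2-AEBP2 at 141639 bp, close to the start of Hspa5. The AEBP2 peak at Phf19 was thus seen in 1 of 2 replicates, and the H3K27me3 peak in both.

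Mtf2 and Phf1, the other Polycomb-like genes, had no peak of any list at the start or in the body. For Mtf2 (chr5:108494693-108538023, plus strand), the nearest AEBP2 peaks lay 300540 bp (replicate 1) and 67074 bp (replicate 2) from the gene start, and the nearest H3K27me3 peaks, 12602 and 10122 bp long, 296405 and 296992 bp from it. For Phf1 (chr17:27070072-27074835, plus strand), the nearest peaks were 80807 and 15968 bp away for AEBP2, 70708 and 77743 bp for H3K27me3 and 80372 bp for FS2-AEBP2. Apart from the peak of AEBP2 replicate 2, which lay over the start of Kifc5b, these had Nkx2-5, a heart homeobox gene, as their nearest gene start.

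**Figure D2:**
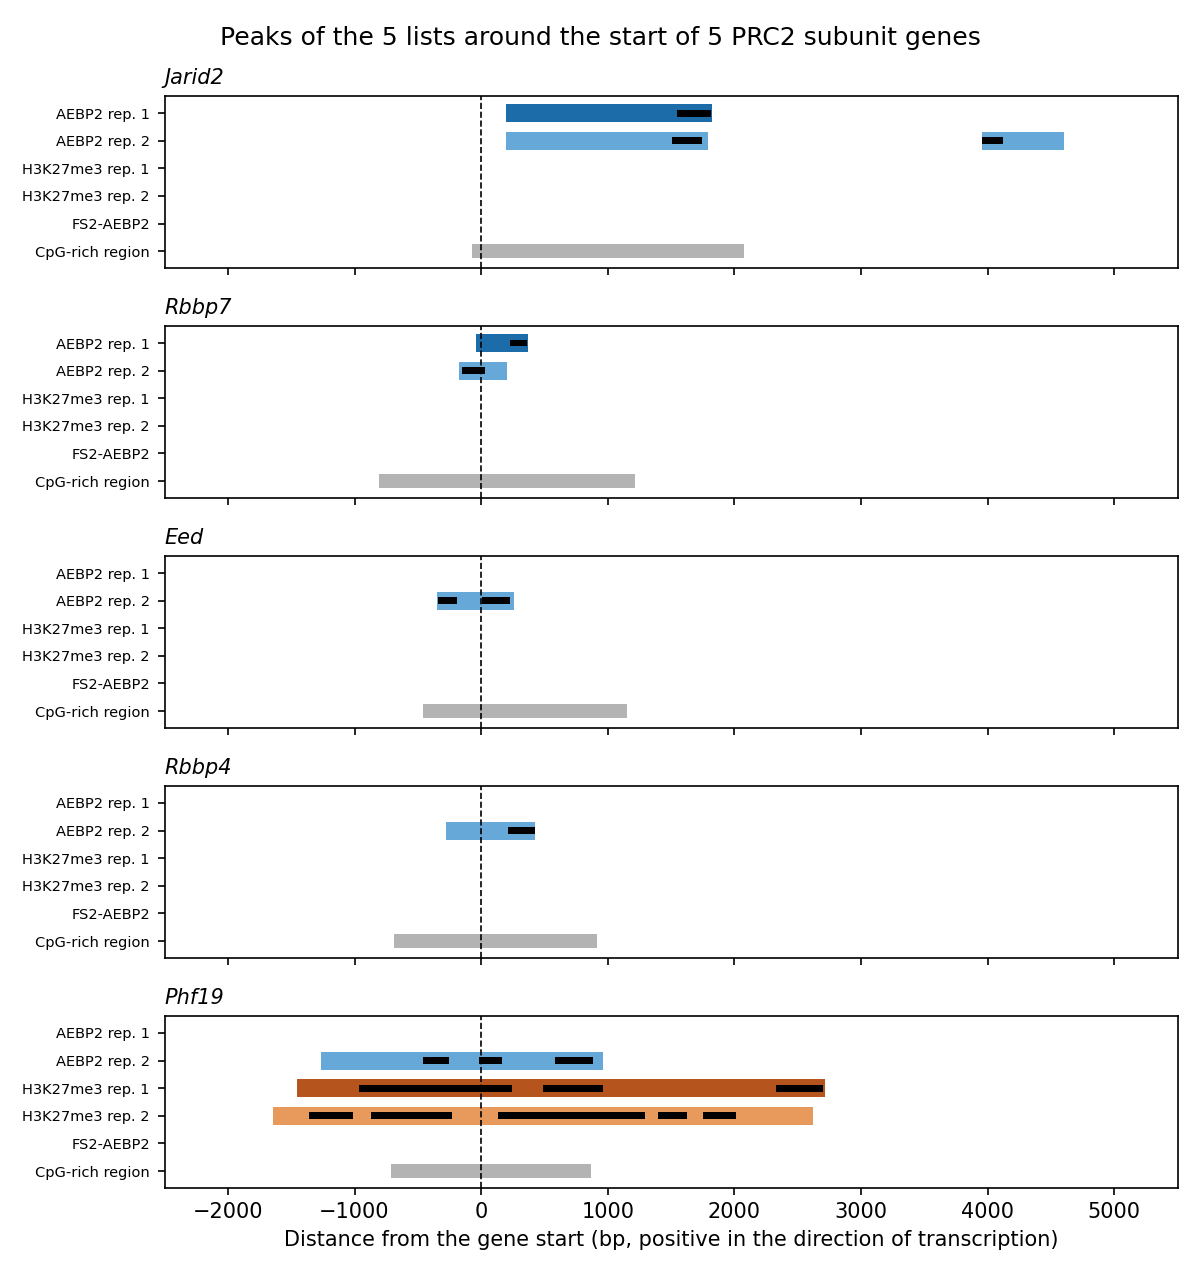
Peaks (coloured bars, 1 row per list) against distance from the gene start in bp, positive in the direction of transcription, for the 5 genes with a peak at their start. Black bars are the stronger sub-peaks that the caller marked inside a peak, and grey bars the CpG-rich region. The AEBP2 peaks of Jarid2 began 194 and 193 bp after the gene start, and the Phf19 peaks of H3K27me3 were the longest, at 4173 and 4267 bp.

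Jarid2 (chr13:44824843-45017012, plus strand), which encodes the accessory subunit found with AEBP2, had the AEBP2 peaks with the highest scores at any of the 10 gene starts. The peak of AEBP2 replicate 1 was 1631 bp long, began 194 bp after the gene start and had a score of 13, above 80.0% of its list. That of replicate 2 was 1596 bp long, began 193 bp after it and had a score of 32, above 94.5%. The peaks shared 1595 bp, or 97.7% of the stretch they spanned, against 44.6% at Rbbp7. The gene start itself lay outside both, but 5 of the 17 annotated transcript starts lay inside both. The sub-peak was at 1550 to 1817 bp in replicate 1 and at 1504 to 1741 bp in replicate 2, past the cluster of transcript starts between 1300 and 1385 bp. That of replicate 1 also held the transcript starts at 1797 and 1813 bp. No H3K27me3 peak came closer to the gene start than 347538 bp, and no FS2-AEBP2 peak closer than 742100 bp. AEBP2 replicate 2 had a further peak of 653 bp, 3952 to 4604 bp after the gene start, which scored above 57.7% of the list.

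The Jarid2 gene body held 10 peaks of AEBP2 replicate 2 in all, and only 5 genes, Jarid2 included, held as many or more. The other 8 lay more than 100 kb from the gene start, and each began and ended within 50 bp of the ends of coding exons. In transcript Jarid2-001, which has 18 exons, these peaks covered all coding bases of 9 exons (4 to 8, 14 to 16 and 18) and 92.3% of exon 3, and no base of the other 8. The peak over exon 6 scored 137, over exon 8 it scored 125 and over exon 7 it scored 114. Of the 6779 peaks of the list, 5, 10 and 17 scored higher than these. The remaining peaks scored 9 at exon 3, 21 at exon 4, 39 at exon 5, 54 at exons 14 to 16 and 30 at exon 18. The scores were thus highest over exons 6 to 8, and each of those was above that of the peak at the gene start.

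The fit of these peaks to exons was close. The peak over the 503 coding bases of exon 8 began 39 bp before them and ended 31 bp after them, and that over the 1033 bases of exon 7 began 25 bp before and ended 8 bp after. A single peak of 1365 bp joined exons 14 to 16 with the introns between them, but its sub-peaks lay over exons 14 and 16. In exon 18 the peak covered the 150 coding bases and only 36 of the 1694 bases that follow, stop codon included. Over the whole gene, AEBP2 replicate 2 peaks covered 78.3% of the coding bases (2898 of 3702) and 1.61% of intron bases (2943 of 182455), the peaks near the gene start included. The 10 exons with a peak had coding lengths of 131 to 1033 bp and the 8 without of 45 to 136 bp, so length nearly separated them. The GC content overlapped, at 49.2% to 61.0% against 37.8% to 56.3%.

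None of the other 4 lists had a peak over a coding base of Jarid2. Peaks of this shape were rare elsewhere: in AEBP2 replicate 2, 38 genes (0.170% of all) had at least 1 peak more than 1 kb from any annotated transcript start with both ends within 50 bp of coding exon ends, and only Jarid2 had more than 1. This rule was set after the Jarid2 peaks had been seen, so these counts describe its rarity and test nothing. The 8 peaks lay over coding exons, and 8 of the 18 coding exons had none. The exons without a peak had coding lengths of 45 to 136 bp, and those with a peak 131 to 1033 bp. Of the 8 peaks, 1 also held 867 intron bases, with its sub-peaks over coding exons. Whether these peaks mark AEBP2 bound along Jarid2 was not tested. Whether copies of the coding sequence without introns, such as cDNA or a plasmid, were in this library was not tested. Without these peaks, Jarid2 keeps its peak at the gene start in replicate 2, and the count of genes with a peak in the gene body stays at 5 of 10.

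**Figure D3:**
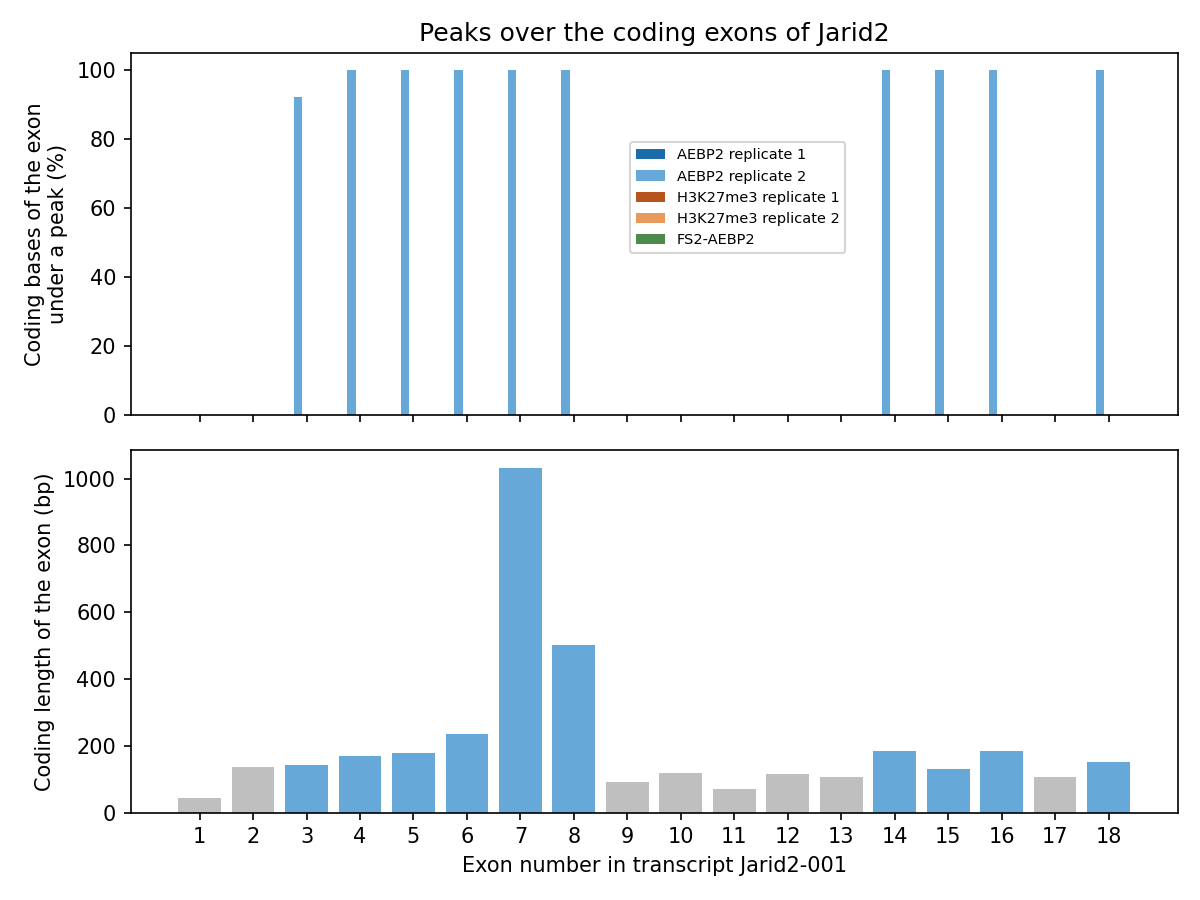
Share of the coding bases of each Jarid2 exon that lay under a peak, by list (upper panel, percent), and coding length of each exon in bp (lower panel, blue where AEBP2 replicate 2 had a peak, grey where it had none). Only AEBP2 replicate 2 has bars, over the full coding length of 9 exons and over 92.3% of exon 3.

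The distance to the nearest peak was also read beside that of other genes. Its median over the 10 genes was 69227 bp in AEBP2 replicate 1 (235377 bp over all genes and 143595.5 bp over the 12312 with a CpG-rich region, defined further on), and 8080.5 bp in AEBP2 replicate 2 (64888 and 22102.5 bp). It was 64155.5 bp in H3K27me3 replicate 1 (77683 and 55882 bp), 67690.5 bp in H3K27me3 replicate 2 (79367 and 50334.5 bp) and 222051.5 bp in FS2-AEBP2 (322015 and 228890.5 bp). In AEBP2 replicate 1, 8 of the 10 genes were closer than the median of all genes, and Eed and Mtf2 were farther. In replicate 2 it was again 8, and Suz12 and Mtf2 were farther. In each H3K27me3 list 6 of the 10 genes were closer than the median of all genes. In FS2-AEBP2, with a peak at 0 of 10 starts, 7 were closer. Against the median of the genes with a CpG-rich region, 6 of the 10 were closer in each AEBP2 list. In each H3K27me3 list 4 were closer than that median, and in FS2-AEBP2 it was 5. For H3K27me3 the medians of the 10 genes lay between those of all genes and of CpG-rich genes.

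**Figure D4:**
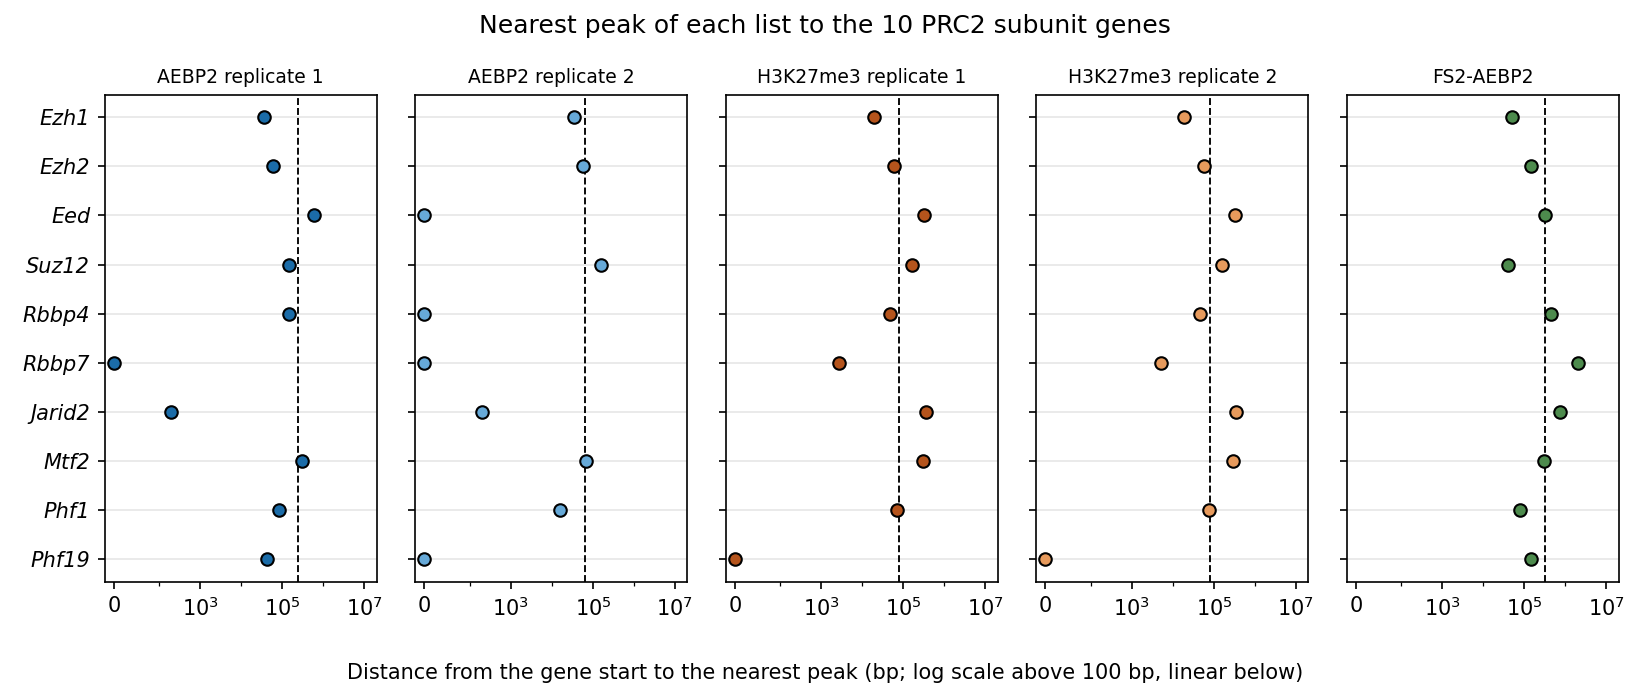
Distance in bp from each gene start to the nearest peak of each list, on an axis that is logarithmic above 100 bp and linear below. Points are the 10 genes, and the dashed line is the median over all protein-coding genes. Rbbp7 lies at 0 in both AEBP2 lists and farthest out, at 1994210 bp, in the FS2-AEBP2 list.

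All 10 gene starts were rich in CpG, the dinucleotide that is dense at many promoters. Each start lay within a CpG-rich region, built by joining 500 bp windows in which G and C made up 55% or more of the bases and CpG reached 0.65 of the number that their G and C would give. Of the 22367 protein-coding genes, 12312 had such a region within 1 kb. The regions were 760 bp (Phf1) to 2150 bp (Jarid2) long. Over the 2 kb window, the CpG ratio had a median of 0.81 in the 10 genes and 0.468 in all genes, from 0.49 at Phf1 to 0.895 at Rbbp4. The 5 starts without AEBP2 held 75 (Mtf2), 79 (Phf1), 96 (Ezh1), 157 (Ezh2) and 165 CG (Suz12). The 5 with AEBP2 in at least 1 replicate held 119 (Phf19), 120 (Jarid2), 135 (Eed), 152 (Rbbp4) and 173 (Rbbp7). The 3 lowest counts were thus at starts without AEBP2, but the groups overlapped. Phf19, the start with H3K27me3, had a CpG ratio of 0.641. Read against those 12312 genes only, the background rises to 16.0% and 39.0% for the AEBP2 lists, 24.5% and 27.5% for the H3K27me3 lists and 11.4% for FS2-AEBP2. For a peak of both AEBP2 replicates it rises to 14.9%.

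Short words were counted on both strands of the same 2 kb windows. One of 4 words of the type bound by E2F factors, which drive cell cycle genes (TTTCCCGC, TTTGGCGC, TTTCGCGC or TTTGCCGC), was found at 5 of 10 gene starts, Ezh2, Eed, Suz12, Mtf2 and Phf19, and at 10.4% of all gene starts or 15.8% of those with a CpG-rich region. CCGGAAG, a word of the ETS type, was found at Suz12 and Rbbp4, and at 24.4% of all starts or 35.6% of those with a CpG-rich region. CTCGCGAG was found at Suz12 alone, and at 2.32% of all starts or 4.04% of those with a CpG-rich region. None of the words was found at Jarid2 and Rbbp7, which had peaks of both AEBP2 replicates, nor at Ezh1 and Phf1, which had no peak. No word contains another, and each contains a CG. A match is a run of letters and no evidence of binding.

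Lists of other chromatin genes gave counts for comparison. Over all protein-coding genes, both AEBP2 replicates had a peak at 8.44% of starts and both H3K27me3 replicates at 15.0%. Both AEBP2 replicates without H3K27me3 were seen at 2.40%. Single lists had a peak at 9.08% and 22.3% (AEBP2 replicates 1 and 2), 17.0% and 17.7% (H3K27me3 replicates 1 and 2) and 6.53% (FS2-AEBP2). No difference between lists was tested. Among 8 further PRC2-linked genes and H3K27 demethylases, 1 start had a peak of AEBP2 replicate 1 (E130012A19Rik, now Epop), 1 a peak of replicate 2 (Lcorl) and none a peak of H3K27me3 or FS2-AEBP2. Of 22 genes of PRC1, the partner complex that ubiquitinates histone H2A, both AEBP2 replicates had a peak at 6 and both H3K27me3 replicates at 6. The Trithorax group as a whole is known to oppose Polycomb. Of 15 COMPASS and Trithorax genes, both AEBP2 replicates had a peak at Mll1 (also called Kmt2a) and Smarca4, and H3K27me3 had none. Of 17 genes of NuRD, Sin3 and CAF-1, complexes that also hold RBBP4, RBBP7 or both, both AEBP2 replicates had a peak at 3. Of these, Chd3 had peaks of all 5 lists while Mbd3 and Sap18 had no H3K27me3.

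**Figure D5:**
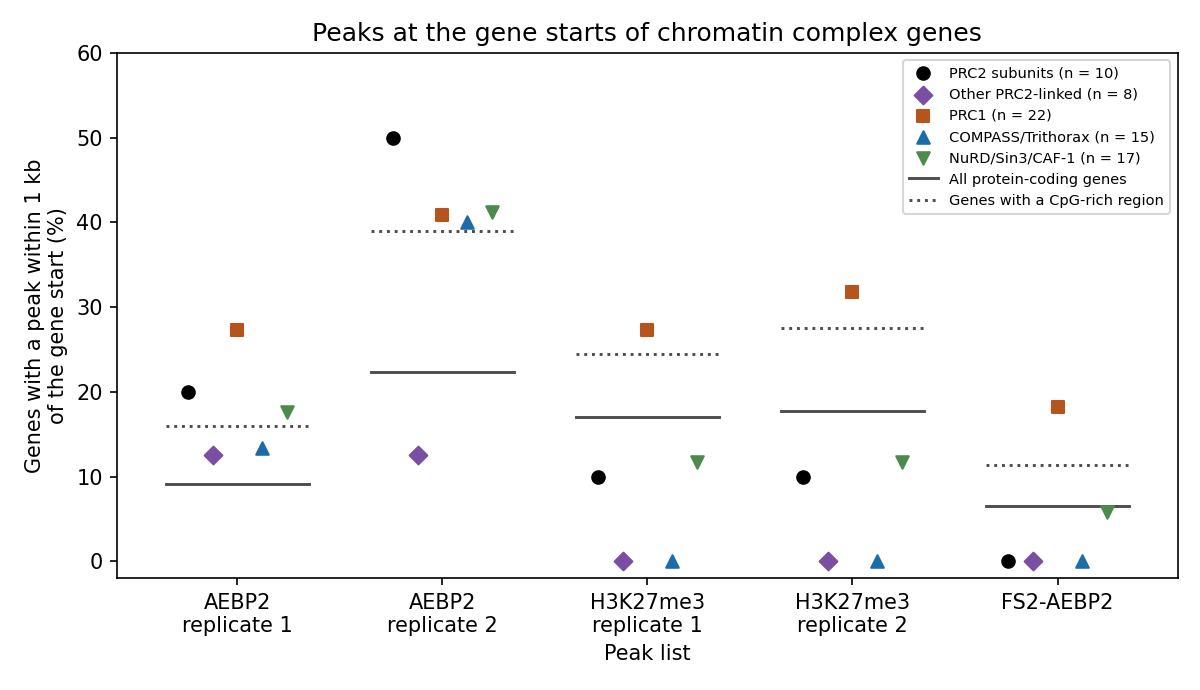
Percentage of genes with a peak within 1 kb of the gene start, for 5 sets of genes (symbols) and each list. Solid lines give all protein-coding genes and dotted lines the genes with a CpG-rich region. The PRC2 subunit genes (black circles) stand at 5 of 10 in AEBP2 replicate 2 and at 0 of 10 in FS2-AEBP2.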

How the data were processed

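The submitters' processing notes name Bowtie, SAMtools, Picard and the peak caller MACS2 2.0.10.2, with build mm9; the settings behind each list are not given in the sources used here. The authors deposited 1 broad-peak list per sample, with a whole-number score for each peak and no counts or p-values, so depth is unknown. The record of each H3K27me3 list and its file name seem to number the replicates in opposite ways, and the records were followed. Peaks off chromosomes 1 to 19, X and Y were left out. A peak was at a gene start if at least 1 bp lay within 1 kb of it, with genes from GENCODE vM1 (mm9) and sequence from the same build. Overlaps were computed in Python 3.11.15 with numpy 2.4.6 and pandas 2.3.3, and were checked on planted peaks. The members and gene lists were chosen with earlier results of these data known. Genes named beyond the 10 members are list members with all 5 lists, or with both AEBP2 replicates and no H3K27me3, at the start, and genes nearest to a peak; Epop and Lcorl were named after their values were seen. The PRC1 genes are given as counts, and some of their names are not reported here. Alternatives were a 2.5 kb window, any transcript start, a score minimum, a 50% overlap, gene bodies without the first 1 kb and single replicates.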

Additional observations from a re-analysis of the deposited data

How the results depend on the processing

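The genes with a peak at the start were the same in every list with a window of 2.5 kb and with the start of any annotated transcript, and H3K27me3 at Phf19 held under every alternative. Taking only peaks with a score no lower than the list's median left 1 of the 10 genes in AEBP2 replicate 1 (Jarid2), 2 in replicate 2 (Jarid2 and Phf19) and 1 in both replicates, with 1152, 3009 and 882 of all genes in AEBP2 replicates 1 and 2 and FS2-AEBP2. In the gene body this left 1, 2 and 0 genes. The Phf19 peak of H3K27me3 replicate 1 had a score of 5, equal to the median of its list, so it only just met this minimum. Peaks over at least 50% of the window left 0 and 1 of the 10 genes (Phf19) in AEBP2 replicates 1 and 2 and 0 in both, with 933, 1944 and 654 of all genes. Either AEBP2 replicate gave 5 genes, and leaving out 1 replicate gave 2 to 5, with the 5 from replicate 2 alone. Gene bodies without the first 1 kb left 1 gene in each AEBP2 list, Jarid2. The peaks at Eed, Rbbp4 and Rbbp7 thus rest on low scores and short overlaps. Those at the Jarid2 start passed the score minimum in both AEBP2 replicates but failed the 50% overlap in both. No paired analysis was possible because no result came from a test. Depth is unknown, so a missing peak cannot be told from a library too shallow to show it.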

Other observations

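In AEBP2 replicate 1, Smchd1, which encodes a protein of X-chromosome silencing and is no PRC2 subunit, was the only gene with more than 1 peak matched to coding exon ends, 3 of its 3 peaks away from transcript starts. The other lists had at most 2 such peaks in a gene, apart from the 8 at Jarid2 in AEBP2 replicate 2. The list of FS2-AEBP2 held 1 peak in Aebp2 itself, 145 bp long with a score of 6, of which 118 bp lay in exon 2 of transcript Aebp2-001. These genes were chosen after their values were seen.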
